A study of Mus musculus with 3 samples.

Results

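H3K4me3 domains that lay inside protein-coding genes, away from their ends, and that carried a peak at every time sampled are described here in mouse granulosa cells. The domains were chosen by measured values. The peaks of 3 libraries on the 19 autosomes and X were pooled, and peaks within 1 kb of each other were joined to domains. A domain was kept where each library had at least 1 peak in it, where it spanned less than 3000 bp, and where it lay in a protein-coding gene more than 1 kb from every protein-coding gene end. The rule kept 1413 of 14778 domains, which is 13.1% of the 10822 domains with a peak at all 3 times. That a member was marked at every time, was short and lay far from gene ends is therefore a description and not a finding.

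The study followed the ovulatory response to human chorionic gonadotropin (hCG), which acts on the luteinizing hormone receptor. Wild-type female C57BL/6 mice of postnatal day 21 to 28 received 4 IU of equine chorionic gonadotropin (eCG), which drives follicle growth, and then 5 IU of hCG. Granulosa cells, the somatic cells that surround the oocyte, were collected by follicle puncture at 3 times. These were just before hCG, called 0 h, 4 h later and 12 h later, and chromatin bearing H3K4me3 was immunoprecipitated and sequenced. Each time had 1 library, how many mice went into it is unknown from the sources at hand, and no p-value is given anywhere below. All 3 groups share the eCG priming.

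Trimethylation of lysine 4 on histone H3 gathers on the nucleosomes that flank active or poised transcription start sites, and most strongly on those just downstream of the start. A gene with several promoters can carry such marks far from the end given by its longest transcript. Internal promoters let a gene make shorter proteins, or use other first exons in other tissues. CpG islands, stretches rich in the dinucleotide CG, coincide with many such starts whatever the tissue, while tissue-restricted promoters are more often poor in CG.

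Peak positions were the only deposited values, so the measure used throughout was covered length, the bp of a domain that the peaks of 1 library cover. At 0 h, 4 h and 12 h there were 22208, 23619 and 20644 peaks in all, of which 2488, 2537 and 2360 lay in members. The narrowest peaks were 136, 139 and 152 bp. Read depth and signal height are unknown. Of 20 granulosa marker genes, 14 had a peak near an end or a listed start at 0 h, 14 at 4 h and 15 at 12 h. For 16 endothelial markers the counts were 2, 4 and 2, for 16 immune markers 1 at each time, for 16 oocyte markers 2, 2 and 1, and for 20 theca and interstitial markers 3, 6 and 3. In such bulk samples, fewer cells of a type and less of the mark per cell cannot be told apart.

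Sequences at inner starts of 7 genes show the range of promoters that the domains lay beside. Each is the stretch of 150 bases just upstream of an inner start listed by RefSeq on GRCm38.p6 (mm10), printed 5′ to 3′ on the strand of the gene. The genes were chosen after their values were seen, 3 whose member was wider after hCG (Errfi1, Runx1, Axin2), 3 whose member was narrower (Cyp19a1, Igf1, Bmpr1b) and 1 non-coding start (Kcnq1ot1). Capitals mark matches on either strand to the full cyclic AMP response element (CRE, TGACGTCA) and its shorter core (TGACG), which lies within the full element, and to the CCAAT box (CCAAT), the GC box (GGGCGG) and the TATA box (TATAAA). Sites for NR5A receptors (AAGGTCA), RUNX sites (TGTGGT), E-boxes (CACGTG) and AP-1 sites (TGACTCA) were searched as well.
Errfi1: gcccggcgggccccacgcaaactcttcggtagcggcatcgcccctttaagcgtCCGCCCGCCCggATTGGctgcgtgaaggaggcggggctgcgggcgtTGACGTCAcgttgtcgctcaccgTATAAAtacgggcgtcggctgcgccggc
Runx1: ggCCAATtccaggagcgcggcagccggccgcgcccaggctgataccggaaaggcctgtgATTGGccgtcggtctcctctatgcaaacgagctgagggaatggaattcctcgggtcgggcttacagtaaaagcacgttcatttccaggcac
Axin2: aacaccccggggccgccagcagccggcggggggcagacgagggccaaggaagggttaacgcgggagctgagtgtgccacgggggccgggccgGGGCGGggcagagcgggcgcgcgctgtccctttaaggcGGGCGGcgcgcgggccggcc
Cyp19a1: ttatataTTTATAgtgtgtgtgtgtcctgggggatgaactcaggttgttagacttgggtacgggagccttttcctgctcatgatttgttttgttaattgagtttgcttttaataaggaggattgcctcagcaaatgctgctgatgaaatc
Igf1: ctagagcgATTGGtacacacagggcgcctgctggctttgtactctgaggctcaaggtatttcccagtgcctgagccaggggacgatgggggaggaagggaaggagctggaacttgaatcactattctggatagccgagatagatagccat
Bmpr1b: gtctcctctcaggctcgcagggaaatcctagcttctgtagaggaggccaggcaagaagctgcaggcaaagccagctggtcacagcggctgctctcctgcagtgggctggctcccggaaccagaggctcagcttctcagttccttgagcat
Kcnq1ot1: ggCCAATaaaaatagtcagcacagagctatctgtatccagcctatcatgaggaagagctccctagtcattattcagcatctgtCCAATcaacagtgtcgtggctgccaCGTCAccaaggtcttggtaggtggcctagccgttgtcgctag

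The Errfi1 stretch (chr4:150854920-150855069, plus strand) had 69.3% G and C and a CpG content of 1.28 relative to that expected from its base composition. It held a full CRE from base -51 to -44, a TATA box from -28 to -23 and a CCAAT box from -85 to -81, counted from the start, and 2 overlapping GC boxes from -97 to -88. The Runx1 stretch (chr16:92697330-92697479, minus strand) had a CpG ratio of 0.891 and 2 CCAAT boxes, and the Axin2 stretch (chr11:108920199-108920348, plus strand) a ratio of 0.938 and 2 GC boxes. The Cyp19a1 stretch (chr9:54193744-54193893, minus strand) had 40.0% G and C and a CpG ratio of 0.188, the Igf1 stretch (chr10:87860961-87861110, plus strand) a ratio of 0.387, and the Bmpr1b stretch (chr3:141931421-141931570, minus strand) a ratio of 0.222. The stretch before Kcnq1ot1 (chr7:143296548-143296697, minus strand), a non-coding RNA inside Kcnq1, had a ratio of 0.427 and 2 CCAAT boxes. The stretch of Igf1 lay wholly inside its domain and 49 bases of that of Bmpr1b did, whereas for the others the covered part began downstream of the start. The Runx1 domain (chr16:92693607-92696343) lay almost 1 kb downstream of the listed start at 92697329, near the limit for an own start. Whether the Runx1 domain marks that start was not tested. The Igf1 domain (chr10:87859581-87861129) lay almost wholly upstream of the listed start at 87861111. Whether it marks that start was not tested. A match to these letters is a description of sequence and no measure of binding. The printed genes were not chosen to represent all members, and members that widened at 4 h lay beside CpG-poor starts too. The stretch at Dmd, with a member of 341, 1203 and 486 bp, had a CpG ratio of 0.378. That at Cald1, with a member of 228, 473 and 371 bp, had a ratio of 0.117.

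Members were of intermediate length. Their median covered length was 647 bp at 0 h (95% order-statistic interval 626 to 675), 717 bp at 4 h (685 to 745) and 640 bp at 12 h (601 to 666), with a full range of 136 to 2113, 139 to 2488 and 152 to 2640 bp. Constant domains of the same span limit at gene ends, 8363 in number, had medians of 800, 872 and 790 bp. The 910 constant intergenic domains had medians of 410.5, 491 and 428 bp. The order was the same at each time and the intervals of the 3 kinds of place did not overlap. All intervals here cover counting error over domains only, since there is 1 library per time. All 3 kinds were widest in the 4 h library, which also had the most peaks.

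**Figure D1:**
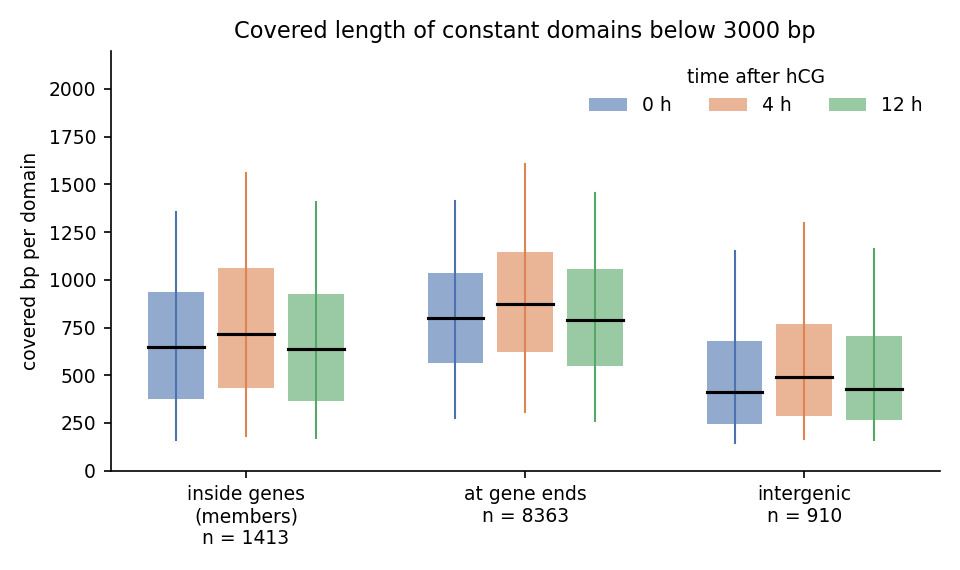
Covered length in bp (y axis) of constant domains spanning less than 3000 bp, by place and time. Boxes run from the lower to the upper quartile, black lines are medians and thin lines run from the 5th to the 95th percentile over domains; members (medians 647, 717 and 640 bp) lie between gene ends and intergenic domains at each time.

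A smaller share of internal domains than of gene-end domains was constant. Among all domains below 3000 bp, 54.7% of the 2581 inside genes had a peak at all 3 times, against 85.4% of 9797 at gene ends and 40.2% of 2264 in intergenic sequence. Within members, the libraries covered partly different bases. The median share of a member's covered bases that all 3 libraries covered was 43.6% (quartiles 24.2% to 58.7%). Widening or narrowing in place lowers this share as a shift does, and the share was not computed for other constant domains. In 118 members (8.35%) no base was covered at every time, so that the domain, and not a base in it, was constant. Just inside the span limit were Bicral (2920 bp), Spin1 (2954 bp) and Irf2bp2 (2988 bp), and just outside it Cpeb2 (3018 bp), Rora (3031 bp) and Robo2 (3042 bp). Just inside the limit on distance were Cxxc5 and Piezo2, each 1002 bp from an end, and Mthfd1 (1003 bp), and just outside it Ldlrad4 (1000 bp), Sh2b2 (994 bp) and Snupn (992 bp).

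The 1413 members lay in 1318 genes, 6.09% of 21627 protein-coding genes. Of the members, 1238 were alone in their host, while 70 hosts held 2, 5 hosts held 3 and 5 hosts held 4. Members of 1 gene share its transcription and are not independent. The 4 domains of Chd9, a chromodomain helicase, covered 286 to 1100 bp across domains and times. Those of Dst, which encodes the cytoskeletal linker dystonin, covered 384 to 885 bp, and those of Nfia, a nuclear factor I transcription factor, 452 to 1230 bp. Pde4d, a cyclic AMP phosphodiesterase with many promoters, held 4 narrow domains of 153 to 952 bp, and Tmem29 on the X chromosome 4 of 153 to 467 bp. Kdm6b, a demethylase of H3K27, held 3, of 179 to 1469 bp, as did Foxp1 and Pakap.

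Hosts were long genes, and members gathered toward the starts of their hosts, mainly those members with a listed start of the host nearby. The median host measured 61029.5 bp, against 17330 bp over all protein-coding genes. The median distance from a member to the nearest gene end was 7567 bp (quartiles 2459 to 27038), and 43.1% of members were over 10 kb from every end. Strand was taken from listed starts, and was known for the hosts of 1173 members. Of these, 24.9% lay in the first 10% of the host (95% Clopper-Pearson interval 22.4 to 27.5), where an even spread over the permitted part of the same genes would put 7.58%. The last 10% held 2.47%, against 7.59% from an even spread. The excess near the start was smaller farther from gene ends: among members more than 5 kb from every end, 8.2% (6.27 to 10.5) lay in the first 10%, against 4.69% from an even spread. The kinds of member differed as well. With a listed start of the host within 1 kb, 30.3% (27.2 to 33.5) lay in the first 10% and 81.4% in the first 50%. With no listed start the shares were 11.8% (8.38 to 15.9) and 56.9%. Of 21 members with the start of a long non-coding RNA alone, 0 lay in the first 10%.

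**Figure D2:**
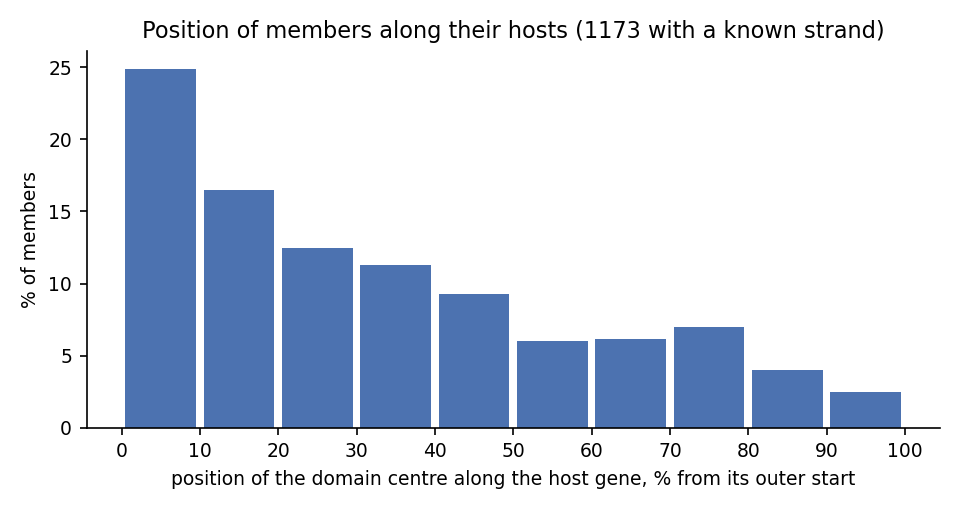
Share of members (y axis, %) by position of the domain centre along the host gene (x axis, % of gene length from the outer start), for 1173 members with a known strand. Bars fall from 24.9% in the first bin to 2.47% in the last.

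Most host genes had no peak at their ends, which the rule in part sets: a member near an end that carried a peak would have been joined to it and left out. No peak lay within 1 kb of either end at any time in 871 of 1318 hosts (66.1%, 63.5 to 68.6), against 48.3% of all protein-coding genes. Peaks at an end at all 3 times were present in 25.6% of hosts and 43.8% of all genes. The difference held in each quartile of host length: in the shortest, 23.3% of hosts and 45.6% of other genes had an end peak at some time, and in the longest 41.2% and 61.9%. Counted by member, the share with a host end peak was 34.2%, and it was 47.1% for members more than 5 kb from every end and 47.4% where only peaks that overlap or touch were joined. By the rule of naming, the widest members whose host ends had no peak included Rps6ka2, a ribosomal S6 kinase, with 1511, 2487 and 2640 bp at 0, 4 and 12 h. They also included Gabpb1, a subunit of the transcription factor GABP, with 1847, 2145 and 2076 bp, and Cpt1a, the carnitine palmitoyltransferase of mitochondrial fatty acid import, with 1715, 1765 and 1536 bp. Kdm6a, an X-linked H3K27 demethylase, had 1542, 1890 and 1467 bp. The members of Cpt1a and Kdm6a lay 1059 and 1148 bp from an end, close to the limit of the rule, and those of Gabpb1 and Rps6ka2 8021 and 81250 bp away. None of the 4 changed by as much as 2-fold.

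Listed starts lay beside most members. Of 1355 members on the 19 chromosomes that the RefSeq promoter table covers, 846 (62.4%, 59.8 to 65.0) had an inner start of their own host within 1 kb. A further 36 had the start of a long non-coding RNA alone, and 473 (34.9%) had no such start listed. The other 58 members were not analysed here for starts. Of the 846, only 296 (35.0%) had a start listed at the outer end of the gene too. For the other 550 none was listed there, and 84.4% of those outer ends had no peak at any time. Their inner start lay a median of 4572 bp from the outer end. Whether such inner starts are alternative promoters was not tested. Internal domains of the same length limit with a peak at only 1 or 2 times had an own start in 22.9% (20.4 to 25.4) of 1129 cases. Those domains were also narrower, with median covered lengths of 206.5, 212 and 240 bp at the times when they had a peak, and the part of width in the difference was not tested. Members with an own start were the wider kind, with medians of 740, 808.5 and 724 bp, against 490, 515 and 462 bp for members with none listed. The host had no end peak at any time for 73.0% of the first kind and 53.1% of the second.

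Coverage took the same shape around own starts at each time. The domain centre was downstream of the start in 88.5% of the 846 members, by a median of 437.75 bp. Coverage was highest 315 bp downstream at 0 h, where 66.2% of members were covered, 348 bp downstream at 4 h (69.7%) and 346 bp downstream at 12 h (65.7%). Within 62 bp upstream of the start it dropped to between 9.81% and 11.3% in the 3 libraries. A lower upstream shoulder reached 20.9%, 21.0% and 19.6%. Of all covered bases, 84.1% at 0 h, 85.1% at 4 h and 86.0% at 12 h were downstream.

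**Figure D3:**
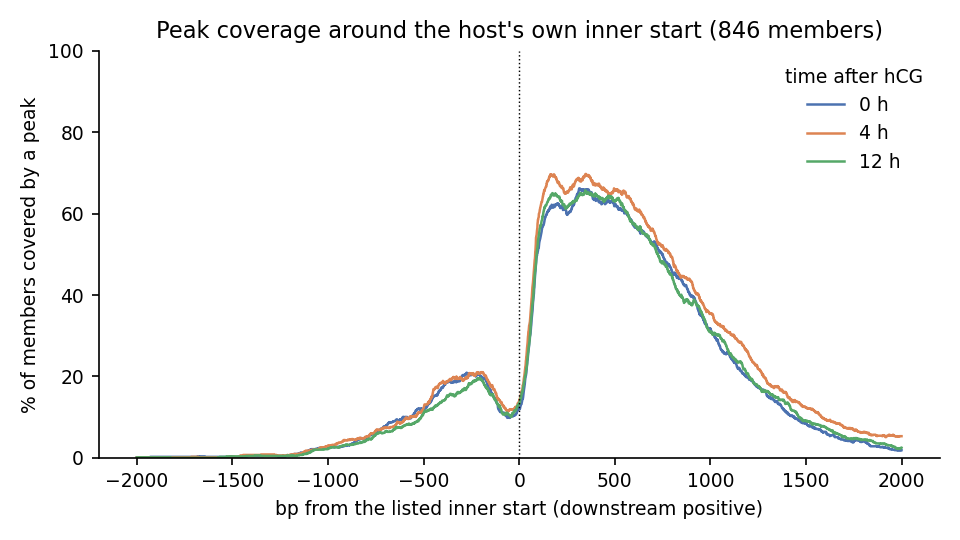
Share of 846 members covered by a peak (y axis, %) at each base around the host's own listed inner start (x axis, bp, downstream positive), 1 line per library. All 3 lines show a dip at the start, a shoulder upstream and their highest values 315 to 348 bp downstream.

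Inner starts that carried a member were rich in CpG. RefSeq listed 3881 inner starts of protein-coding genes more than 1 kb from gene ends, of which 1008 (26.0%) lay at a member and 2249 (57.9%) at no domain. The median CpG ratio over 300 bases at the start was 0.774 (0.749 to 0.795) at a member and 0.253 (0.242 to 0.26) where there was no domain. The ratio exceeded 0.6 in 74.5% of the first and 11.3% of the second. Outer starts at constant domains had a median of 0.815. GC boxes (GGGCGG) were present in 68.1% of the 846 windows beside members, 21.0% of windows at inner starts without a domain, 70.5% at outer constant starts and 35.9% of all 32619 listed windows. TATA boxes ran the other way, with 4.96%, 14.7%, 5.6% and 13.7%. The full CRE was present in 2.6%, 0.934%, 3.95% and 1.8%, and the NR5A site in 2.72%, 6.22%, 2.56% and 4.71%. For these 4 sets of letters and for the CpG ratio, the inner starts at members were nearer to marked outer starts than to unmarked inner ones. The CCAAT box went the other way, with 34.0% at members, 35.6% at unmarked inner starts and 39.2% at outer constant starts. Median G and C content was 63.2% in the windows beside members, 50.7% at unmarked inner starts and 62.3% at outer constant starts. The part of base composition in the shares of these letters was not tested.

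**Figure D4:**
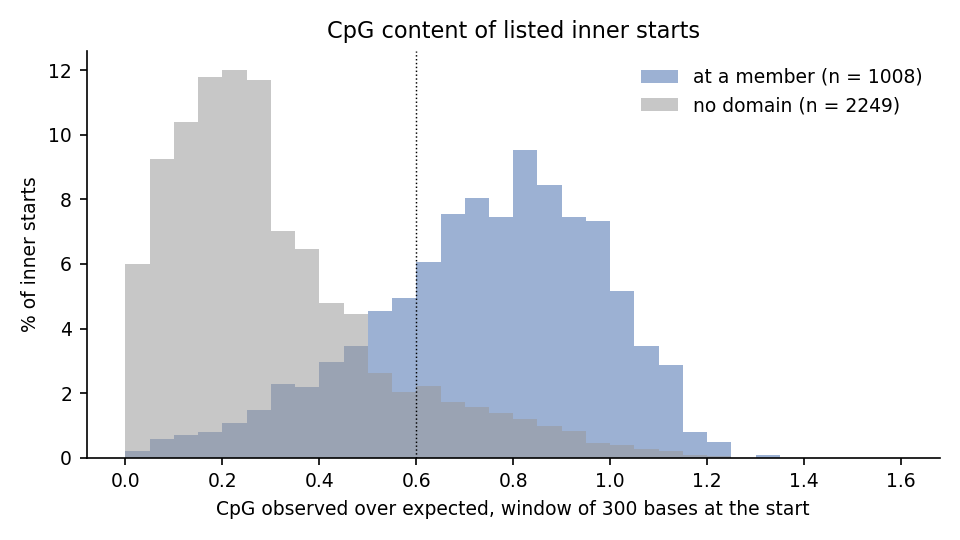
CpG observed over expected (x axis, ratio) in windows of 300 bases at listed inner starts, as a share of starts (y axis, %), for starts at a member (blue) and at no domain (grey). The dotted line is at 0.6; 74.5% of starts at a member and 11.3% of the others lie above it.

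Inner and outer starts of 1 gene could be compared in 296 members whose host had a start listed at its outer end too. The outer start had no peak at any time in 168 of them (56.8%), a peak at all times in 108 (36.5%) and at some times in 20. Where both were marked throughout, in 108 members of 107 genes, the outer domain was the wider in 65.7% at 0 h, 61.1% at 4 h and 68.5% at 12 h. Its medians were 806.5, 893.5 and 807 bp, against 585.5, 643 and 506 bp for the inner. The outer length sums all domains within 1 kb of the outer start with no span limit, while members span less than 3000 bp. The same outer values count for both members of Mrpl48, and for Arvcf and Tango2. The following 3 genes were chosen after their values were seen. In Kansl1, a subunit of a histone acetyltransferase complex whose starts were 27217 bp apart, the inner domain covered 1508, 1743 and 1735 bp and the outer 447, 875 and 1162 bp. In Entpd1, which encodes the ectonucleotidase CD39, the inner domain went from 371 bp to 1458 and 1899 bp while the outer had 525, 702 and 489 bp. In Arid1a, a subunit of the BAF remodelling complex, the inner domain had 1067, 1148 and 858 bp, and the outer 204 bp at 0 h, none at 4 h and 152 bp at 12 h. The outer values of Arid1a were close to the narrowest peaks in the lists.

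Most members, 72.4% (70.0 to 74.7), kept their covered length within 2-fold in all 3 comparisons, a smaller share than the 79.8% of all constant domains. Between 0 h and 4 h, 142 of 1413 members (95% interval of the share 8.53% to 11.7%) became at least 2-fold wider, beside 7.56% of all 10822 constant domains, and 70 (4.95%) at least 2-fold narrower, beside 3.14%. Between 4 h and 12 h, 46 (3.26%) widened, beside 2.79%, and 140 (9.91%) narrowed, beside 6.53%. Between 0 h and 12 h, 106 (7.50%) widened, beside 6.19%, and 118 (8.35%) narrowed, beside 5.51%. The 95% interval of the members' share included the background for widening from 4 h to 12 h (2.39% to 4.32%) and from 0 h to 12 h (6.18% to 9.0%), and lay above it for the other 4 counts. The median log2 ratio over all constant domains was 0.11 from 0 h to 4 h and -0.12 from 4 h to 12 h. With that median subtracted, the early step had 7.86% wider and 6.51% narrower members, beside 5.94% and 4.0% of all constant domains. Among members with at least 300 bp at both times, a limit chosen after seeing the data, the shares of the early step were 5.89% (4.56 to 7.46) and 1.93% (1.2 to 2.94), beside 4.25% and 1.27%, so that the interval for narrowing then included the background. So did that for narrowing from 0 h to 12 h, at 3.65% (2.59 to 4.97) beside 2.76%. The 4 h library also had the most peaks and the most theca markers with a peak, and their part in the early step was not tested. Peak names of the 12 h list lack a tag (nolambda) that those of the other lists carry, and its part in the differences from 12 h was not tested.

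A larger share of members at CpG-poor own starts was narrower at 12 h. With a CpG ratio of at most 0.6, 26 of 206 members (12.6%, 8.41 to 17.9) were at least 2-fold narrower at 12 h than at 0 h, against 32 of 640 (5.0%, 3.44 to 6.99) above that ratio and 5.51% of all constant domains. The shares that widened were 8.74% and 5.62%, with intervals that overlapped, beside 6.19%. From 0 h to 4 h, 11.2% of the CpG-poor and 7.66% of the CpG-rich members widened, again with overlapping intervals, beside 7.56%. The CpG-poor members were also narrower at 0 h, with a median of 600 bp against 795 bp, and the part of width was not tested.

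Members of the granulosa markers Cyp19a1 and Nr5a2 were among those that narrowed. Cyp19a1 encodes aromatase, which turns androgens into estrogens and is transcribed from tissue-specific promoters. Its member (chr9:54190765-54193418) covered 1908 bp at 0 h, 845 bp at 4 h and 382 bp at 12 h, a log2 ratio of -2.32 from first to last, and neither end of the gene carried a peak at any time. Bmpr1b, a type I receptor for bone morphogenetic proteins, had 1918, 1035 and 593 bp (log2 -1.69), with a peak at an end of the gene at all times. It was not among the granulosa markers but in a list of 37 TGF-beta, BMP and SMAD genes. Of these, 4 (10.8%) were hosts, with 4 members whose median log2 ratio from 0 h to 12 h was 0.16. Bmpr1b was the 1 member of that list at least 2-fold narrower at 12 h, and 0 were wider, beside 5.51% and 6.19% of all constant domains. Nr5a2, a nuclear receptor of steroid-producing cells, had 586, 479 and 203 bp, and Gata4, a transcription factor of the gonad, 633, 498 and 497 bp. In the members of Nr5a2 and Gata4 no base was covered at every time. The values of Cyp19a1 and Bmpr1b were lower at each later time, and those of Gata4 hardly differed between 4 h and 12 h. Of the 20 granulosa markers 3 (15.0%) were hosts, Cyp19a1, Gata4 and Nr5a2, beside 6.09% of all protein-coding genes. Of their 3 members 2, Cyp19a1 and Nr5a2, were at least 2-fold narrower at 12 h than at 0 h, beside 5.51% of all constant domains. The host shares of this list and of all others were not matched for gene length or for peaks at gene ends. The part of either in these shares was not tested.

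**Figure D5:**
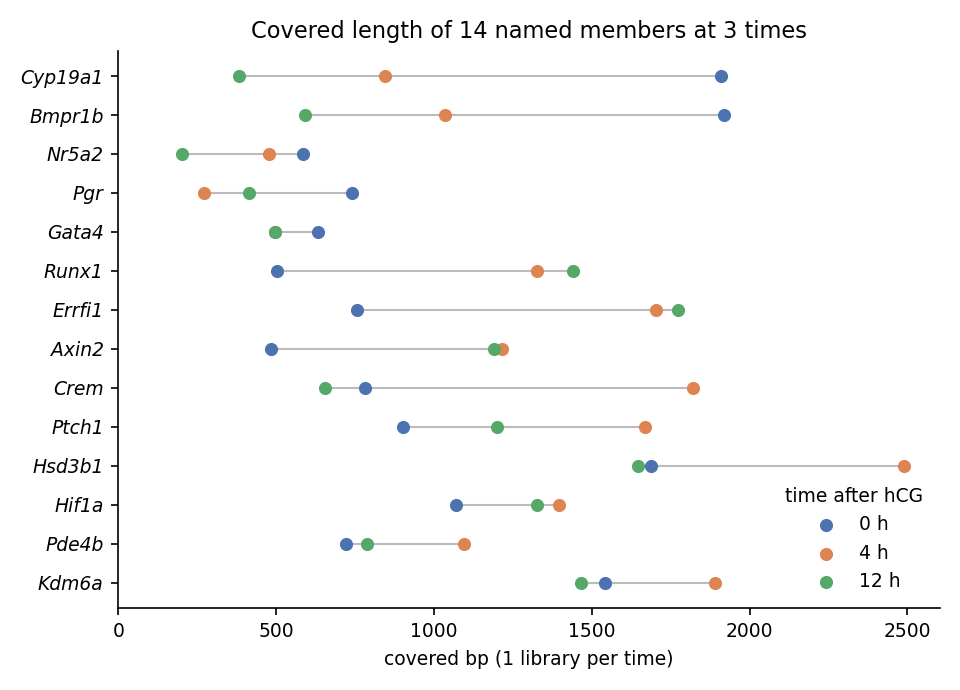
Covered length in bp (x axis) of 14 named members (y axis) at 0 h, 4 h and 12 h, 1 library per point. Cyp19a1, Bmpr1b and Nr5a2 are widest at 0 h and narrowest at 12 h, and Runx1 and Errfi1 are narrowest at 0 h and widest at 12 h.

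Steroid receptor genes and other granulosa regulators did not move as one. Of 30 genes of granulosa transcription factors and hormone receptors, 8 (26.7%) held 9 members, beside 6.09% of all protein-coding genes as hosts. Of the 9 members, 1 was at least 2-fold wider and 2 narrower at 4 h than at 0 h, beside 7.56% and 3.14% of all constant domains. Their median log2 ratio was -0.35, beside 0.11 for all constant domains. Pgr, the progesterone receptor gene needed for ovulation, had an inner domain of 740, 270 and 414 bp that was lowest at 4 h. Esr1, which encodes estrogen receptor alpha, held 2 members, of 1494, 788 and 776 bp and of 366, 532 and 167 bp. Nr3c1, the glucocorticoid receptor gene, had 1236, 895 and 1322 bp and stayed within 2-fold. Igf1, the insulin-like growth factor, was named outside the rule after its values were seen; its member covered 1386, 948 and 584 bp, a log2 ratio of -1.25 from 0 h to 12 h. Greb1, a gene known for its response to estrogen, had 1101, 233 and 199 bp, among the steepest losses.

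Genes of the ovulatory response were hosts in 5 of 40 cases (12.5%), beside 6.09% of all protein-coding genes, and held 5 members. From 0 h to 4 h 2 of the 5 were at least 2-fold wider and 1 narrower, beside 7.56% and 3.14% of all constant domains. Runx1, a transcription factor, had 502, 1327 and 1440 bp (log2 1.52 from 0 h to 12 h). Errfi1, a feedback inhibitor of the epidermal growth factor receptor, had 757, 1702 and 1774 bp (log2 1.23). Both were low at 0 h and stayed wide at 12 h. Hif1a, the oxygen-regulated transcription factor, had 1069, 1397 and 1325 bp, and Hsd3b1, an enzyme of progesterone synthesis, 1688, 2488 and 1645 bp, neither past 2-fold. Pgr was the fifth, and moved the other way at 4 h. Among genes outside the list, Nfkbiz, which encodes an inducible nuclear inhibitor of NF-kB, had 856, 2370 and 2145 bp. Nr4a1, an early-response nuclear receptor, had 719, 1629 and 1059 bp and an end peak at 4 h and 12 h only.

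Cyclic AMP carries the hormone signal inside granulosa cells. Of 47 genes of its pathway, 11 (23.4%) held 17 members, beside 6.09% of all protein-coding genes as hosts. From 0 h to 4 h, 3 of the 17 were at least 2-fold wider and 0 narrower, beside 7.56% and 3.14% of all constant domains, and the median log2 ratio was 0.16, beside 0.11. Crem makes the repressor ICER from an internal promoter, and its member (chr18:3279068-3281759) had 782, 1820 and 654 bp. It was high at 4 h alone. Pde4b, a phosphodiesterase that degrades cyclic AMP, had 721, 1096 and 787 bp. The 4 members of Pde4d held the other pair that widened 2-fold, the last of them with 389, 952 and 764 bp. The regulatory subunits of protein kinase A were steady, with 1299, 1349 and 1642 bp in Prkar1a and 1269, 1246 and 1161 bp in Prkar2b. Gnas, which encodes the stimulatory G protein and is imprinted, had members of 1043, 968 and 1000 bp and of 732, 816 and 1094 bp.

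Genes known for internal or alternative promoters were frequent hosts, with 28 of 60, beside 6.09% of all protein-coding genes. The list was drawn up for that property, with earlier results of these data known. Its 38 members had a median log2 ratio of 0.42 from 0 h to 4 h, beside 0.11, and 8 of them were at least 2-fold wider and 1 narrower, beside 7.56% and 3.14%. From 4 h to 12 h, 8 narrowed and 1 widened, beside 6.53% and 2.79%, and from 0 h to 12 h there were 3 each way, beside 6.19% wider and 5.51% narrower. The lists overlapped and are not separate observations. Crem, Gnas, Pde4b, Pde4d, Esr1, Nr3c1, Pgr and Runx1 were hosts in lists above as well. The widened members of Crem, Pde4d and Runx1 are among the 8 that widened from 0 h to 4 h. Pgr and Runx1 were also in both the granulosa factor and the ovulatory lists. Dmd, which encodes dystrophin, had 341, 1203 and 486 bp, and Ank3, which encodes ankyrin-G, 361, 1021 and 397 bp. Both were high at 4 h alone and were named outside the rule after their values were seen. Lmna, the gene of A-type lamins, was wider at each later time without passing 2-fold, at 723, 1063 and 1329 bp.

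Chromatin regulators were hosts in 22 of 60 genes (36.7%), beside 6.09% of all protein-coding genes, with 29 members. These genes were also marked more often: 50, 48 and 51 of the 60 had a peak near an end at 0 h, 4 h and 12 h. The shares over all protein-coding genes were 47.4%, 49.1% and 47.1%, and the part of this in the host share was not tested. From 0 h to 4 h 2 were at least 2-fold wider and 0 narrower, beside 7.56% and 3.14% of all constant domains. Kmt2d, a methyltransferase of H3K4, had 1201, 1436 and 1295 bp, and Kdm4c, a demethylase of H3K9, 1294, 1185 and 1554 bp. Smarca2, an ATPase of the BAF complex, had 815, 1519 and 1167 bp. RNA-binding and splicing factors held 9 members in 8 of 49 genes (16.3%), such as Hnrnpu with 1657, 2047 and 1647 bp and Srsf1 with 1511, 1711 and 1576 bp. Of 38 Wnt and Hippo genes 5 (13.2%) were hosts. Axin2, a Wnt target and inhibitor of the pathway, had 484, 1214 and 1190 bp, while Amotl1, Axin1, Sav1 and Vgll4 stayed within 2-fold. None of 20 housekeeping genes was a host, nor was any of the 16 endothelial, 16 immune, 16 oocyte or 20 unrelated-lineage genes. With 6.09% of all protein-coding genes as hosts, lists this short would hold few, so a count of 0 is close to that share. Ptch1, the hedgehog receptor, was the single host among 20 theca and interstitial markers (5.0%), at 903, 1670 and 1199 bp.

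The steepest ratios came from members near the width limit of the peak lists at 1 time. Adgrv1, a large adhesion receptor gene, had 138, 2220 and 770 bp, Arhgap32 137, 1167 and 1412 bp, and Slc7a11, the cystine transporter gene, 175, 1395 and 561 bp. At 0 h these members held little more than the narrowest peak of that library, 136 bp. From 0 h to 12 h the steepest losses were in Tenm4, a teneurin, with 1586, 208 and 159 bp, Ivns1abp, with 1237, 622 and 152 bp, and Tnc, which encodes the matrix protein tenascin-C, with 1367, 348 and 237 bp. From 4 h to 12 h Aff1, a subunit of transcription elongation complexes, went from 1147 to 155 bp, having had 715 bp at 0 h. In Arhgap32, Tenm4 and Tnc no base was covered at every time.

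Non-coding genes lay beside some members. The start of a non-coding gene or pseudogene, or either end where no start was listed, lay within 1 kb of 212 members (15.0%, 13.2 to 17.0). The share was 41.9% of constant intergenic domains and 9.33% of internal domains with a peak at 1 or 2 times. With listed starts of long non-coding RNAs alone, the shares were 10.1% of 1355 members, 20.2% and 5.05%. By domain centre the share of members near such a start or end was 11.7%, where these reach 1.78% of gene-internal bases. The member in Kcnq1 lay at the start of the imprinted non-coding RNA Kcnq1ot1 and had 1524, 1667 and 1289 bp. That in Igf2r lay at the start of Airn, another imprinted non-coding RNA, and had 602, 805 and 567 bp. Neither changed by 2-fold. Hairpins of 11 microRNAs lay in a member or within 1 kb of one, of 1005 in the table, with no background share to set beside them. The hairpin of Mir34b (chr9:51103562-51103645, minus strand) lay inside the member in Btg4. That of Mir34c (chr9:51103034-51103110, minus strand) lay outside the member but within 1 kb. The Btg4 member covered 172, 331 and 349 bp, and its 0 h value was close to the narrowest peak of that library, 136 bp. Igf2r and Btg4 were named after their values were seen. The mature 3p forms of Mir34b and Mir34c share a seed, bases 2 to 8, which is in capitals in the RefSeq sequences that follow. The 5p form of Mir34b comes after them.
mmu-miR-34b-3p: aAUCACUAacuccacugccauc
mmu-miR-34c-3p: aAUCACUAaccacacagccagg
mmu-miR-34b-5p: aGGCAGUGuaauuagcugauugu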

How the data were processed

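H3K4me3 peaks were analysed from 3 libraries of mouse granulosa cells, 1 at each of 0 h, 4 h and 12 h after hCG, grouped by their labels. The authors deposited 1 list of peak positions per library (chromosome, start, end and name, with no score, p-value or count), so peak height and read depth are unknown. The submitters' processing notes name CASAVA 1.8, Bowtie2 2.2.3, MACS2 2.0.9 and mm10. The caller's threshold, and whether an input library served as control, are unknown from these sources. Per the file contents, peak names at 0 h and 4 h carry the tag nolambda and those at 12 h do not.

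Peaks were joined, placed and measured with Python 3.11.15, pandas 2.3.3, numpy 2.4.6 and scipy 1.17.1, and figures drawn with matplotlib 3.10.9. Gene ends and listed starts came from RefSeq tables of GRCm38.p6, the build of the files. The covered length of a domain is the bp covered by the peaks of 1 library. A member was called wider or narrower at a 2-fold ratio, with no test. Shares have 95% Clopper-Pearson intervals, which cover counting error only. The steps were tested on simulated data.

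The members and gene lists were chosen with earlier results of these data known. Named members, leaving out unnamed gene models, were the 10 widest, the 5 narrowest, the 5 largest changes each way per comparison with at least 400 bp at the wider time, hosts with the most members, up to 8 per gene list, those nearest each limit, and the widest with a non-coding start, bare host ends or changing host ends. Others are stated as chosen after their values were seen.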

Additional observations from a re-analysis of the deposited data

Results flagged for a closer look

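Chromosome Y was outside the rule for domains and all mice were female, yet the lists held 28 peaks on it at 0 h, 43 at 4 h and 25 at 12 h, and no cause was tested.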

How the results depend on the processing

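With 1 library per time, no spread between animals is known, leaving out a library leaves no value for its time, and depth is unknown. No paired analysis was possible because each time has 1 library. Of 188 values under 30 settings, 139 stayed within the counting interval of the reported value, or within 1.5 times for the number of members. The rest follow. The settings chosen after seeing the data were the limit of 300 bp, the reach of listed starts (inside, 500 bp and 2 kb), and gene ends in single libraries.

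Joining only peaks that overlap or touch gave medians of 461, 504 and 452.5 bp at 0 h, 4 h and 12 h, 3.71% narrower members from 0 h to 4 h and 7.46% from 4 h to 12 h. It gave 47.4% with a peak at a host end, 59.7% with an own start and 34.9% in the first 10% of the host. A span below 2000 bp gave medians of 612, 657 and 586 bp. More than 2 kb from ends, the 12 h median was 593.5 bp and those shares were 39.9%, 59.5% and 16.2%. More than 5 kb from ends, 837 members remained, with medians of 602, 662 and 570 bp, 11.7% narrower from 4 h to 12 h, and shares of 47.1%, 54.4% and 8.2%. Without the narrowest 25% of peaks, the 0 h and 4 h medians were 686.5 and 759 bp, 29.1% had a host end peak and 66.1% an own start.

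With the ratio centred, 7.86% were wider and 6.51% narrower from 0 h to 4 h, and 7.93% narrower from 4 h to 12 h. At 1.5-fold the wider and narrower shares were 22.2% and 11.3% from 0 h to 4 h, 8.56% and 22.6% from 4 h to 12 h, and 16.5% and 17.4% from 0 h to 12 h. With at least 300 bp at both times they were 5.89% and 1.93%, 1.1% and 4.96%, and 3.93% and 3.65%. Host end peaks were found for 30.3% of members within 500 bp and 59.4% within 2.5 kb, a window that can reach the member itself, and for 28.9%, 31.1% and 29.6% in the 0 h, 4 h and 12 h libraries alone. Non-coding starts, or either end where no start was listed, lay within 2 kb of 17.2%. Own starts lay inside 30.7% of members. The cause of each shift was not tested.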
